A study of Homo sapiens with 10 samples.

Results

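Binding sites of IRF4 that lie close together along the chromosome were examined in 501Mel, an established human melanoma cell line. The IRF4 protein was tagged with eGFP, an enhanced form of green fluorescent protein, and its sites were mapped by ChIP-seq, in which DNA bound by the tagged protein is recovered and sequenced. There were 2 ChIP replicates, which the study's design calls biological, and each had its own peak list, a list of the stretches of the genome where recovered DNA was concentrated. Every group shares the cell line, and how the tagged protein was expressed is not given in the sources used here. A replicate 1 peak counted as shared when 1 base or more of it lay under a replicate 2 peak, on chromosomes 1 to 22 or X. A shared peak was a member of a cluster when the gap from its edge to the edge of another shared peak was at most 12500 bases. By this rule 680 of 4687 shared peaks were members, which is 14.5% (95% exact binomial interval 13.5 to 15.5), and they formed 308 clusters. The remaining 4007 shared peaks were isolated. Replicate 1 listed 7568 peaks in all and replicate 2 listed 12831. Applied to 1 list alone, with no requirement of sharing, the same distance joined 1458 peaks of replicate 1 or 4057 peaks of replicate 2, so the number of members depends on both lists being used.

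IRF4, interferon regulatory factor 4, is a DNA-binding protein best known from lymphocytes, where it directs plasma cell and T cell differentiation. In pigment cells it acts with MITF, the master regulator of the melanocyte lineage, and takes part in the control of tyrosinase, the key enzyme of melanin synthesis. Members of its family recognise short elements built on the letters GAAA, and IRF4 binds many sites weakly on its own and more firmly beside ETS or AP-1 partner proteins. Sites of one factor that stand close together are a common feature of enhancers, and the distance used here is the one commonly used to join neighbouring sites into large enhancer domains. Genes and sequence letters at the sites were not analysed here, because no annotation or genome in the coordinates of the peak lists was used.

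Members were chosen by the positions of the peaks in both lists, and scores come from the same ChIP, so all values of position and score below are descriptions without a test. The score is the authors' own value for each peak. Its lowest value was 100.01 in the first list and 150.01 in the second. It is not defined in the sources used here and ranks peaks only within its own list. Positions are counted from 1 in the coordinates of the files, whose unplaced contigs carry hg19 names. Intervals cover counting error only, and peaks that neighbour each other are not independent.

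Most clusters were pairs. Of the 308 clusters, 257 held 2 members, 40 held 3, 10 held 4 and 1 held 6. Clusters were present on all 23 chromosomes examined. Their spans ran from 1420 to 39652 bases, with a median of 9247.5 bases and quartiles of 5151.5 and 13260 bases. The clusters together spanned 3.07 megabases, of which the members themselves covered 1.26 megabases. A median of 44.2% of a cluster's span was covered by its members, and the share ran from 9.66% to 99.95%. Clusters therefore ranged from peaks that nearly touched to peaks separated by stretches much longer than the peaks themselves.

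The gaps between neighbouring members formed a narrow group of very short distances and a broad remainder. Over 372 pairs of adjacent members, the gap ran from 1 to 12413 bases with a median of 4631 bases. In 71 pairs (19.1%, interval 15.2 to 23.5) it was at most 500 bases, and in 147 pairs (39.5%) at most 3000 bases. From 500 to 1000 bases there were 16 pairs, from 1000 to 2000 there were 44 and from 2000 to 3000 there were 16. Between 3000 and 12500 bases the number of pairs stood between 10.2 and 14.0 for each 500 bases of gap. Past the joining distance, up to 25000 bases, it stood between 7 and 10.8. The number of pairs thus changed little across the joining distance itself. The 5 widest gaps inside the rule ran from 12154 to 12413 bases, and the 5 narrowest gaps outside it ran from 12532 to 12735 bases. In the widest pair inside, on chromosome 12, the left peak at 56497711 to 56499291 scored 143 in replicate 1 and the right peak at 56511705 to 56512813 scored 269.9. In the nearest pair outside, on chromosome 19, the left peak at 55971983 to 55974334 scored 115 and the right peak at 55986867 to 55988541 scored 166.

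**Figure D1:**
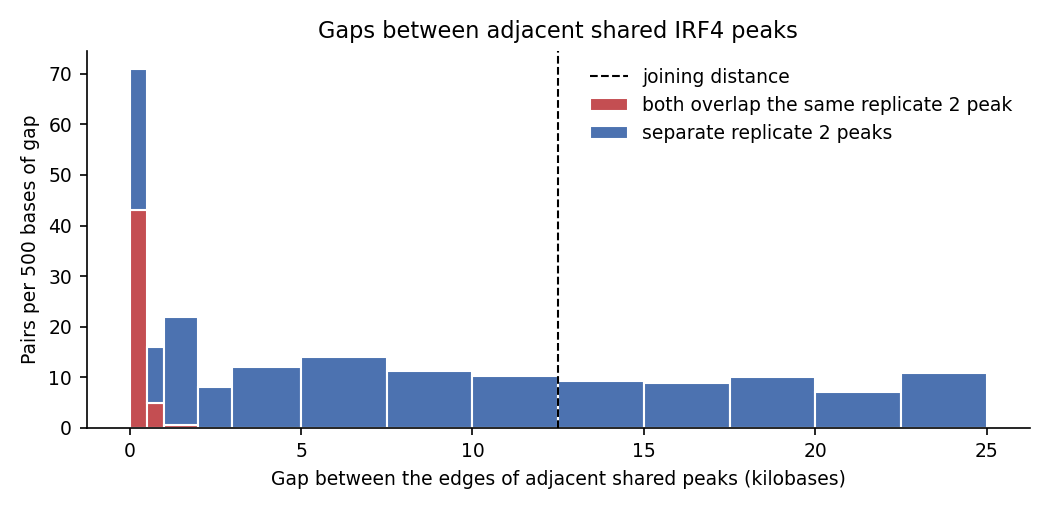
Gaps between the edges of adjacent shared peaks (horizontal axis, kilobases) against the number of pairs for each 500 bases of gap (vertical axis). Red marks pairs that overlap the same replicate 2 peak, blue marks pairs with separate replicate 2 peaks, and the dashed line marks 12500 bases. The first bar holds 71 pairs, of which 43 are red, and the bars on either side of the dashed line are of like height.

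Many of the closest neighbours in replicate 1 were a single peak in replicate 2. Of the 71 pairs with a gap of at most 500 bases, 43 (60.6%, 48.3 to 71.97) overlapped the same replicate 2 peak. Of the 301 pairs further apart, 6 (1.99%, 0.735 to 4.29) did. The 49 such pairs had a median gap of 101 bases and a widest gap of 1555 bases, against a median of 5583 bases for pairs with separate replicate 2 peaks. They involved 97 members, and 29 clusters (9.42%) overlapped only 1 replicate 2 peak in all. For these clusters the lists do not show whether there are several sites or a single one. Merging each such set of neighbours into 1 region left 595 of 4638 regions in 272 clusters, or 12.8%. Separate partners did occur at very short gaps as well. On chromosome 17, peaks at 79365204 to 79369619 and 79369629 to 79371866 lay 9 bases apart with scores of 198 and 1576. On chromosome X, peaks at 123093754 to 123094930 and 123094942 to 123096162 lay 11 bases apart with scores of 175 and 209.5.

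Each member overlaps a replicate 2 peak by the rule, so the replicate 2 peaks at a cluster lie close together too, and the following counts are fixed in large part by the choice of members. In 258 of 308 clusters (83.8%, 79.2 to 87.7) the number of replicate 2 peaks overlapping the members equalled the number of members, and in 15 (4.87%) it was higher. Building clusters from the shared peaks of replicate 2 gave 709 members in 319 clusters, and 277 of the 308 clusters (89.9%) overlapped one of these. A member overlapped 2 or more replicate 2 peaks in 26 of 680 cases (3.82%, 2.51 to 5.55), against 41 of 4007 isolated peaks (1.02%, 0.735 to 1.39). The centres of a member and its best-scoring replicate 2 partner lay a median of 155 bases apart (interval of the median 128.5 to 172.5). For isolated peaks this distance was 90.0 bases (85.0 to 93.5). The members' value includes those that share a replicate 2 peak with a neighbour, and such a peak cannot be centred on each of them.

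The cluster with the most members lay on chromosome 1 from 9487909 to 9516522 and held 6. Its best-ranked member stood at 1199 of the 4687 shared peaks in replicate 1 and at 870 in replicate 2. In replicate 1 they scored 339, 103, 199, 174, 169.9 and 109 from left to right, and in replicate 2 they scored 334, 625, 546, 351, 479 and 192. The first member was the highest of the cluster in replicate 1, while the second, the lowest in replicate 1, was the highest in replicate 2. The gaps between members were 9105, 1991, 1075, 3317 and 4157 bases.

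The next cluster by members, also on chromosome 1, from 149803281 to 149833749, had the highest summed replicate 1 score of the clusters with 4 members, 4014. Its members scored 817, 1549, 1172 and 477 in replicate 1, and 1089, 2098, 1479 and 1298 in replicate 2. Both replicates placed the same member highest. The middle members were broad in both lists, with replicate 1 widths of 4125 and 4136 bases, and the outer members were narrow, with 1620 and 1742 bases. The 3 gaps were nearly equal, at 6382, 6156 and 6308 bases.

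A cluster on chromosome 2, from 145267891 to 145282736, held the best-scoring shared peak of replicate 1. That member, at 145272991 to 145275845, scored 2491 in replicate 1 and 2355 in replicate 2. Its 3 neighbours scored 113, 377 and 541 in replicate 1, but 1789, 2224 and 1352 in replicate 2. The ratio of the highest to the lowest score was therefore 21.96 in replicate 1, the highest of the 308 clusters, and 1.74 in replicate 2.

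The cluster with the widest span, 39652 bases, lay on chromosome 17 from 43212252 to 43251903. A single member, at 43224267 to 43228028, stood far above the others in both replicates, with scores of 1299.9 and 2334. Its neighbours scored 109, 159 and 168 in replicate 1 and 162, 393 and 212 in replicate 2. A further chromosome 17 cluster, from 56003909 to 56033631, was more even in replicate 2, where its members scored 676, 878, 951 and 871. In replicate 1 those members scored 239.8, 674, 289 and 158.

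In a pair of the clusters with 4 members, each replicate 2 peak took up 2 members. On chromosome 5, from 140874227 to 140889353, members with gaps of 54 and 55 bases lay under replicate 2 peaks that scored 1762 and 1282. They scored 275, 226, 149.97 and 770.0 in replicate 1. On chromosome 3, from 194869743 to 194876603, gaps of 14 and 43 bases lay under replicate 2 peaks that scored 3147 and 1991. The replicate 1 scores there were 548, 162, 114 and 453. The first of these chromosome 3 partners had the highest replicate 2 score of all shared peaks. With each replicate 2 peak counted as 1 region, each of these clusters has 2 regions rather than 4.

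The remaining clusters with 4 members had lower summed replicate 1 scores, which is the order in which clusters of equal size are given here. On chromosome 19, from 56145820 to 56167480, the replicate 1 scores were 191, 413, 135 and 287, and the replicate 2 scores ran only from 237 to 311. On chromosome 22, from 39691874 to 39729725, the replicate 1 scores were 433, 139.99, 291 and 142, and the replicate 2 scores were 318, 723, 599.7 and 294. This cluster held very broad peaks, with replicate 1 widths of 6318 and 7767 bases for its first members. On chromosome 12, from 125398158 to 125425800, outer members of 519 and 212 flanked inner members of 127 and 127 in replicate 1. The outer members were also the higher ones in replicate 2, with 543 and 765 outside and 219 and 159.9 inside. The other cluster with 4 members, on chromosome 19 from 40926028 to 40950993, scored 114, 307, 282 and 239 in replicate 1, and 175, 315, 400.1 and 1359 in replicate 2.

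Of the 5 shared peaks with the best combined rank of scores, 2 were members. One was the chromosome 2 peak above. The other lay in a cluster of 3 on chromosome 3, from 193846145 to 193856440, and scored 1965 in replicate 1, the fourth-highest of all shared peaks, and 2841 in replicate 2. Its neighbours scored 145 and 131 in replicate 1. The right-hand neighbour, 780 bases away, lay under the same replicate 2 peak.

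**Figure D2:**
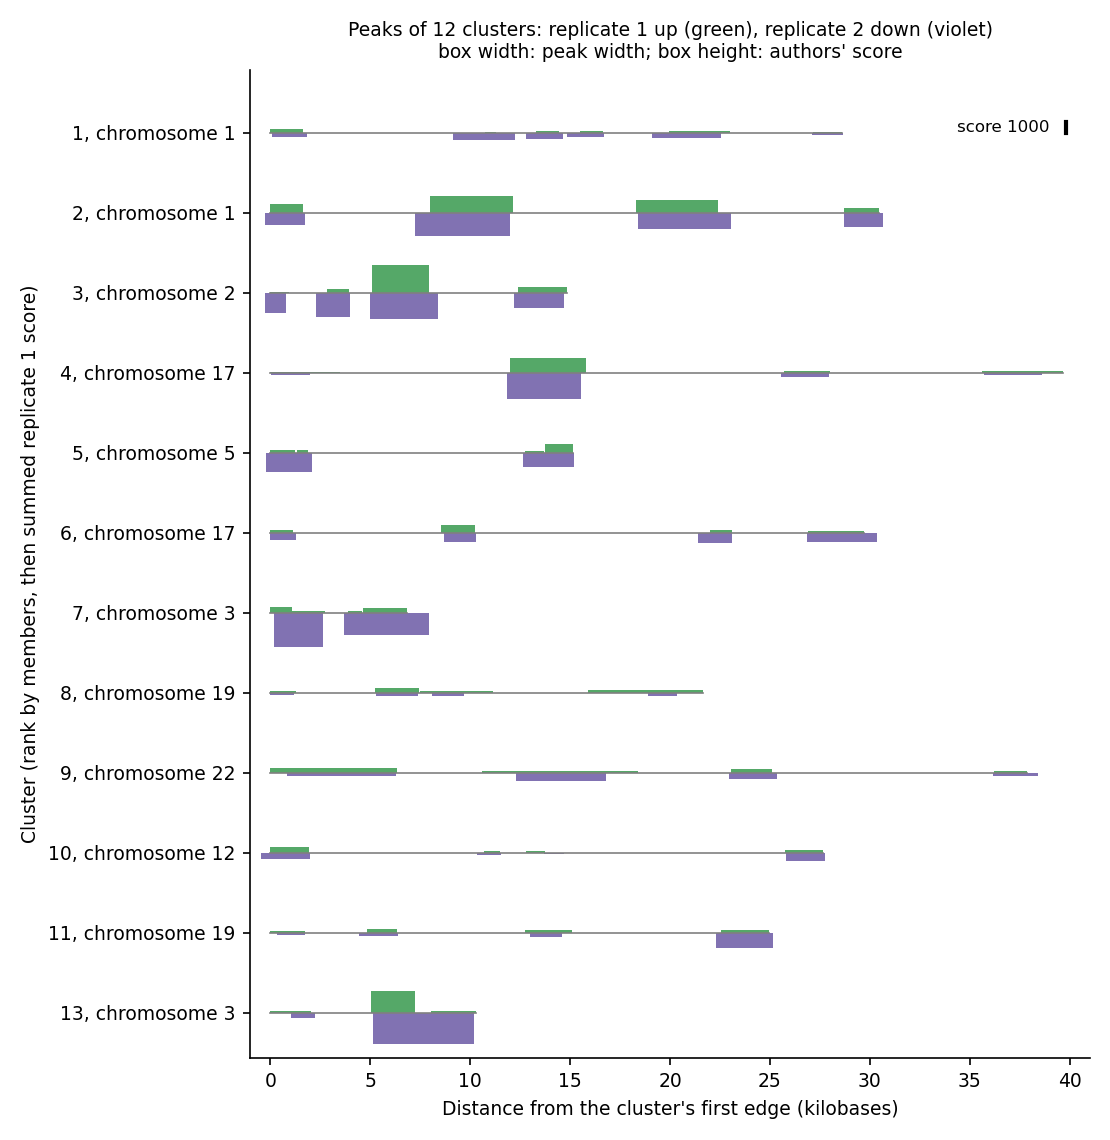
Members of 12 clusters along the distance from each cluster's first edge (horizontal axis, kilobases), numbered by rank on members and then on summed replicate 1 score (vertical axis). Green boxes above a line are replicate 1 peaks, violet boxes below it are their best-scoring replicate 2 partners, and box height is proportional to the authors' score in that list. In clusters 5 and 7 each violet box lies under 2 green boxes, and in clusters 3, 4 and 13 a single green box stands far above the others.

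Members scored higher than isolated shared peaks in replicate 2, while in replicate 1 the difference was smaller. In replicate 2 the median score was 411 among members (interval of the median 380.2 to 448) and 309.8 among isolated peaks (304 to 319). In replicate 1 the medians were 229.7 (215 to 244) and 217 (212 to 223), so these intervals overlap. Members whose neighbours overlapped other replicate 2 peaks (583 of 680) had a replicate 2 median of 365, and the 97 members beside one that overlapped the same replicate 2 peak had 788. Such a replicate 2 peak enters the members' values more than once. With those neighbours merged, the difference of medians in replicate 2 was 65.0, against 102 before. With shared peaks taken from replicate 2 it was 49.98. The replicate 1 difference, 12.5, became 21.65 with the merging and 26.5 with shared peaks taken from replicate 2, and it turned to -7.84 in the better-scoring 50% of each list.

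The higher replicate 2 scores of members were present on most chromosomes. All members were counted here without the merging, so a replicate 2 peak that several members overlap enters more than once. The members' median replicate 2 score was above that of the isolated peaks on 21 of 23 chromosomes, and on 13 of the 13 chromosomes with at least 20 members. The exceptions were chromosome 22, with 294 among 12 members against 360.4 among isolated peaks, and X, with 222 among 9 members against 257. In replicate 1 the members' median was higher on 16 of 23 chromosomes and on 9 of those 13. By cluster size, the 46 members of clusters with 4 or more had a replicate 2 median of 699 (interval 393 to 1282), against 410.2 (370.2 to 444) in clusters of 2 and 381 (318 to 473) in clusters of 3. These intervals overlap. Their replicate 1 median was 239.6, against 226 and 243. The replicate 2 medians by cluster size count a replicate 2 peak more than once where several members overlap it. This was so in the clusters with 4 members where each replicate 2 peak took up 2 of them.

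**Figure D3:**
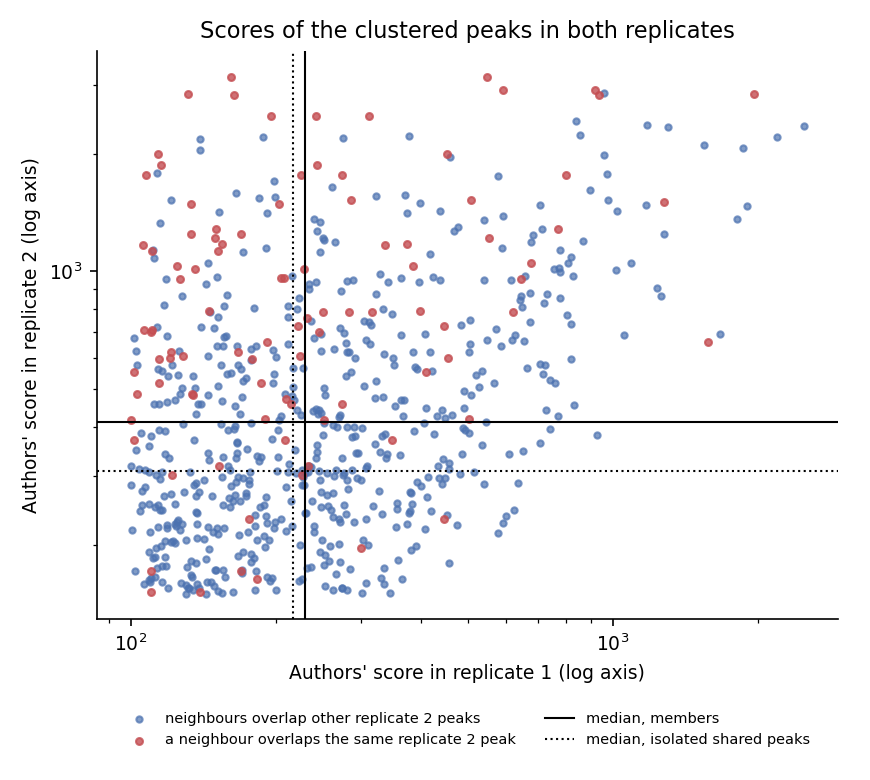
Authors' score of each of the 680 members in replicate 1 (horizontal, log axis) and replicate 2 (vertical, log axis). Red marks the 97 members beside a member that overlaps the same replicate 2 peak; solid and dotted lines mark the medians of members and of isolated shared peaks, which lie close together in replicate 1 (229.7 and 217) and apart in replicate 2 (411 and 309.8).

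Clustering was most frequent among the best-scoring peaks of replicate 2. When the shared peaks were divided into 10 equal classes by replicate 2 score, 29.6% (25.5 to 34.0) of the highest class were in clusters and 20.5% (16.9 to 24.4) of the next. In the other classes the share ran from 7.89% to 14.5%. Ranked by replicate 1 score, 19.6% (16.1 to 23.5) of the highest class were in clusters, and the other classes ran from 11.5% to 15.8%. Of the 100 best-scoring shared peaks, 44 were members by replicate 2 and 27 by replicate 1. These counts and classes were taken without merging. A high-scoring replicate 2 peak that several members overlap therefore enters the replicate 2 values more than once, each time as a member. After merging neighbours that overlapped the same replicate 2 peak, the highest class held 23.1% (19.3 to 27.2) in clusters by replicate 2. The next held 15.7% (12.5 to 19.4), and the other classes ran from 7.11% to 12.9% (10.0 to 16.3), so these last intervals overlap. By replicate 1, the highest merged class held 17.9% (14.5 to 21.7), and the others ran from 9.91% to 13.6% (10.6 to 17.1), with overlapping intervals.

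**Figure D4:**
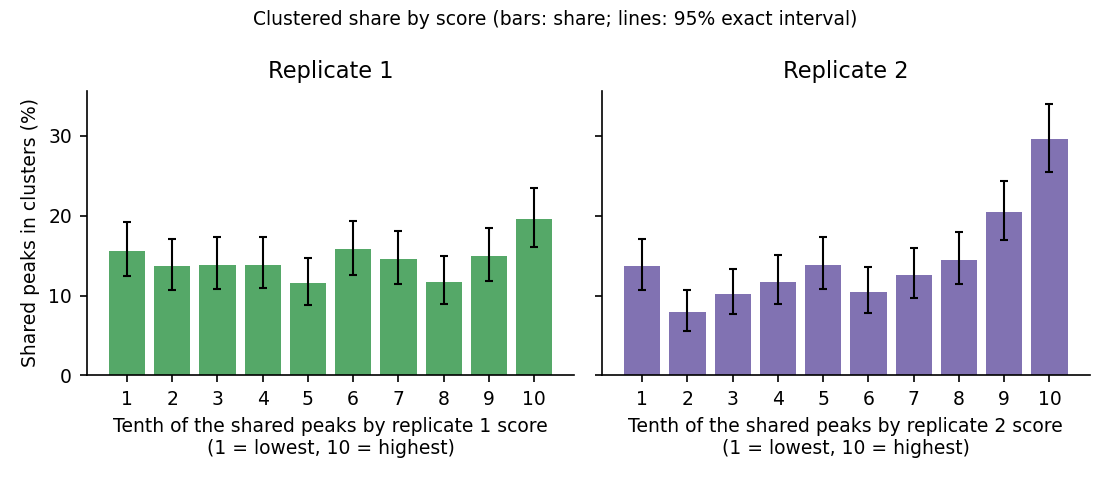
Share of shared peaks that are in clusters (vertical axis, percent) in 10 equal classes by score (horizontal axis), in replicate 1 on the left and replicate 2 on the right; lines are 95% exact intervals. The highest class reaches 19.6% in replicate 1 and 29.6% in replicate 2. Neighbours that overlap the same replicate 2 peak are not merged here.

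In some clusters, members that scored above and below the median of the shared peaks stood together. The highest member of a cluster had a median of 343 in replicate 1 and the other members had 164, which the choice of the highest fixes in part. The ratio of the highest to the lowest score in a cluster had a median of 1.93 in replicate 1 and 1.66 in replicate 2. The replicate 2 ratio is 1 by construction where all members take their score from the same replicate 2 peak. The 29 clusters that overlapped only 1 replicate 2 peak are among these. In replicate 1, every member lay above the median of the shared peaks in 83 of 308 clusters, no member did in 69, and the rest were mixed. In replicate 2, every member did in 120 clusters and none in 59. No matching counts for sets of shared peaks outside clusters are given here, so the mixture is not shown to be particular to clusters.

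The order of members within a cluster was partly the same in both replicates. In the 222 clusters of 2 with separate replicate 2 peaks, the member that scored higher in replicate 1 also scored higher in replicate 2 in 136 (61.3%, 54.5 to 67.7). The share was 52.9% (41.8 to 63.9) over 85 clusters where the members' replicate 1 scores differed by less than 1.5 times, and 77.6% (63.4 to 88.2) over 49 clusters where they differed by 3 times or more. In clusters of 3 or more members, the same member was highest in both replicates in 25 of 51. Those 51 include clusters in which members overlapped the same replicate 2 peak and tied for the highest replicate 2 score. There no single member was highest, so the count depends in part on how ties fell. Across all members, the scores of the replicates had a Spearman's rho of 0.33 (n = 680), and across isolated peaks 0.36 (n = 4007). These coefficients describe peaks of the same 2 ChIP libraries.

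Likeness between the scores of neighbouring members was weak. Over the 323 pairs of adjacent members with separate replicate 2 peaks, Spearman's rho between the left and the right score was 0.21 in replicate 2 and 0.037 in replicate 1. Over 229 pairs of adjacent shared peaks with gaps from 12500 to 25000 bases, it was 0.11 in replicate 2 and 0.039 in replicate 1. Over 4063 pairs still further apart it was 0.050 and 0.037. Pairs within each of these groups share their library, and a peak can stand in more than 1 pair.

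Members also had more peaks of replicate 2 alone around them than isolated shared peaks did. A replicate 2 peak that overlapped no replicate 1 peak lay within 12500 bases of 206 of 680 members (30.3%, 26.9 to 33.9) and of 637 of 4007 isolated peaks (15.9%, 14.8 to 17.1). Among members whose neighbours overlapped other replicate 2 peaks, the share was 30.5%. A peak of replicate 2 alone near several members of a cluster is counted for each of them. Members were also chosen for having near neighbours at this same distance. The members' share was the higher one on 16 of 23 chromosomes and on 12 of the 13 with at least 20 members. For peaks of replicate 1 alone, the shares were 7.06% (5.25 to 9.25) and 5.94% (5.23 to 6.72), whose intervals overlap. Inside the spans of the clusters, 26 clusters held a peak of replicate 2 alone and 6 held a peak of replicate 1 alone.

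Clustered sites were unevenly spread over the chromosomes. Chromosome 19 had the highest clustered share, with 66 of 228 shared peaks (28.9%, 23.1 to 35.3), followed by chromosome 17 with 72 of 292 (24.7%, 19.8 to 30.0) and chromosome 6 with 73 of 353 (20.7%, 16.6 to 25.3). Chromosome 8 had the lowest, with 6 of 134 (4.48%, 1.66 to 9.49). Chromosomes 19 and 17 also had the densest shared peaks, with 3.86 and 3.64 per megabase between their first and last shared peak. Across the 23 chromosomes, the rank correlation of this density with the clustered share (Spearman's rho) was 0.61, and Pearson's r was 0.76, both given as a description. Chromosome 15 had a low clustered share, 8.81%, at a density of 2.41, above the densities of chromosome 6 (2.09) and chromosome 14 (1.76), whose clustered share was 19.7%. Chromosomes 1, 6, 17 and 19 had the most members, followed by chromosomes 5 and 12 with 42 each. Chromosomes 1, 5, 6, 17 and 19 held 49.0% of the members and 33.2% of the isolated peaks. They were picked by their number of members, so the higher share of members is in part built in.

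**Figure D5:**
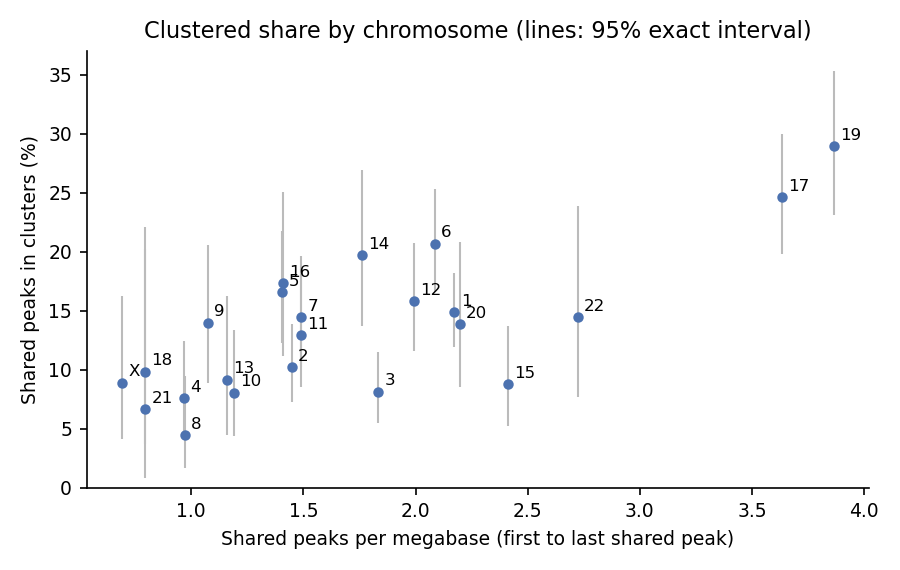
Clustered share of the shared peaks (vertical axis, percent, with 95% exact intervals) against shared peaks per megabase between the first and last shared peak (horizontal axis), 1 point for each chromosome. Chromosomes 17 and 19 lie at the upper right, with 3.64 and 3.86 shared peaks per megabase.

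Clusters gathered in some regions. Another cluster lay within 1000000 bases of 151 of the 308 clusters (49.0%), and within 100000 bases of 46 (14.9%). No matching share for isolated peaks is given here, and the shared peaks were themselves unevenly dense. The window of 5 megabases with the most members lay on chromosome 6, where 35 members in 16 clusters stood between 27255656 and 32223644. They made up 47.3% of the 74 shared peaks in that window, with median scores of 227 in replicate 1 and 508 in replicate 2. The window was picked by its number of members, so a high share is in part built in. The next windows were both on chromosome 19, with 24 members in 11 clusters between 45581905 and 50382035, and 20 members in 9 clusters between 10513575 and 14251809. Median scores were 197 in replicate 1 and 299 in replicate 2 in the former of these windows, and 319 and 295 in the latter. The isolated peaks' medians were 217 in replicate 1 and 309.8 in replicate 2. The median of the chromosome 6 window was above the isolated median in both replicates, that of the former chromosome 19 window was below it in both, and that of the latter was above it in replicate 1 only. The windows that followed lay on chromosome 1 (medians 173 and 416.5) and chromosome 17 (189 and 392). Both were below the isolated median in replicate 1 and above it in replicate 2.

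The replicate 2 partners of members were wider than those of isolated shared peaks, while the replicate 1 intervals overlapped. The median width in replicate 1 was 1569 bases among members (interval of the median 1457 to 1635) and 1470.0 bases among isolated peaks (1446 to 1494). The replicate 2 partners had medians of 1739 bases (1671 to 1825) and 1478 bases (1456 to 1506). In clusters of 4 or more members the replicate 2 median was 2272 bases (1836 to 2528). All members were counted, so a replicate 2 peak that several members overlap enters these replicate 2 medians more than once. Such a peak also spans the gap between those members. Peaks of 1 replicate alone were narrower, with medians of 1091 bases in replicate 1 and 1138 bases in replicate 2.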

How the data were processed

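ChIP-seq of eGFP-tagged IRF4 in 501Mel cells gave 1 peak list for each of 2 replicates. The authors' score of each peak was used as deposited. Peak names in the deposited lists begin with MACS. Per the submitters' processing notes, Bowtie2, hg19 and GRCh38 were used, with no role stated. The caller's version and use of the 2 input samples are not given in the sources used here. No threshold is stated there either, but the names of the 2 lists carry unlike labels. The lists also begin at unlike scores, 100.01 in replicate 1 and 150.01 in replicate 2. Read depth is unknown, so differences between the lists in depth cannot be corrected.

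Overlaps and clusters were computed in Python 3.11.15 with pandas 2.3.3, tested on simulated lists and checked against bedtools 2.31.1, which gave the same counts. Intervals of shares are 95% exact binomial (Clopper-Pearson, scipy 1.17.1), and intervals of medians are from binomial order statistics. A member's replicate 2 score is that of its best-scoring overlapping peak. Clusters described singly are the 10 with the most members, ties by summed replicate 1 score, with those that hold 1 of the 5 best combined ranks. The eleventh by that order was added after its values were seen, as were the closest pairs and the windows of 5 megabases. The members and rules were chosen with earlier results of these data known.

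The RNA-seq tables of siIRF4 and siCTRL (3 libraries each) list transcripts only and were not analysed here, since no table used here pairs them with genes or with the coordinates of the peaks.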

Additional observations from a re-analysis of the deposited data

How the results depend on the processing

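The number of members and of clusters follows from the joining distance, the overlap and the length of the lists. The 680 members, 308 clusters and 14.5% became 371, 176 and 7.92% when 5000 bases joined peaks, and 1046, 445 and 22.3% with 25000 bases. Raising the lowest score of replicate 1 to 150, as in replicate 2, gave 391, 179 and 11.2%, and the better-scoring 50% of each list gave 205, 94 and 9.46%, with fewer peaks by construction. A reciprocal overlap of 50% gave 490, 228 and 11.2%. Merging neighbours that overlap the same replicate 2 peak, chosen after seeing the data, gave 595, 272 and 12.8%, and shared peaks taken from replicate 2 gave 709, 319 and 15.1%. Leaving out a ChIP replicate removes the sharing: the members ranged from 1458 to 4057, the clusters from 636 to 1680 and the share from 19.4% to 31.7%. The difference in median replicate 1 score between members and isolated peaks, 12.5, became -7.84 in the better-scoring 50%. The cause was not tested. In replicate 2 the difference was above 0 under every alternative that used both lists, from 49.98 with shared peaks taken from replicate 2 to 200.2 in the better-scoring 50%. The median span moved with the joining distance, to 5177 and 15875 bases. No paired analysis was possible because the results come from no test between groups. Not run were every alternative for siIRF4 against siCTRL, for genes at clusters, for promoters and for motifs. Depth limits remain unknown, as the lists hold no read counts.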
